A study of Mus musculus with 12 samples.

Results

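The genes described here belong to the IL-33 and IL-6 cytokine systems, and their RNA was measured in mouse fibroblasts in normoxia and hypoxia. They were taken by name from the table of raw counts as Il33, Il1rl1, Il1r1, Il1rap, Il6, Il6st, Lif, Il11, Il11ra1 and Socs3, which are 10 of its 54446 genes, and all 10 had enough counts to be tested. NIH3T3 is an established line of mouse embryonic fibroblasts. The wild-type cells were compared with ΔN-VEGF cells (labelled dN-VEGF), a deletion line that descends from NIH3T3 and had the sequence for N-VEGF, an amino-terminal extension of the VEGF-A precursor, deleted from Vegfa by genome editing. Both lines were kept either in normoxia or for 16 h in hypoxia, below 0.2% oxygen, and each of the 4 groups had 3 samples. The deletion was made by putting reporter cassettes in place of the N-VEGF sequence, isolating clones and removing the cassettes, so that a difference between the lines cannot be told apart from a difference between a clonal derivative and its parent. The sources do not state which clone was sequenced or whether samples of a group were separate cultures, so p-values measure only the spread between these samples.

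Interleukin 33 is stored in the nucleus of stromal and epithelial cells and acts as an alarm signal when it is released from damaged cells. It binds the ST2 chain, encoded by Il1rl1, which then recruits the accessory chain encoded by Il1rap, and the pair signals through MYD88 to NF-κB. Il1rl1 also gives a short messenger for a soluble ST2 that captures IL-33 outside the cell. The same accessory chain serves the interleukin 1 receptor, Il1r1. Interleukin 6, leukemia inhibitory factor (Lif) and interleukin 11 signal through the shared chain gp130, encoded by Il6st, to the kinase JAK1 and the transcription factor STAT3, and SOCS3 is induced by STAT3 and shuts gp130 signalling off. Fibroblasts are a known source of several of these ligands.

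Levels are given as CPM, counts scaled to library size with TMM factors (the CPM of edgeR), and differences as log2 fold changes with their standard error (SE). A gene passed the test at a Benjamini-Hochberg adjusted p below 0.05 over all 14724 tested genes in edgeR's quasi-likelihood test, fitted once to all 12 samples. Adjusted p-values below come from that test, refitted to the remaining samples where a sample is said to be left out, unless another test is named. Total counts per sample lay between 30519052 and 43056690. Replicate 2 of wild-type normoxia stood apart from its group, with correlations of 0.956 and 0.957 with the other 2 samples, which correlated at 0.996. Replicate 2 of ΔN-VEGF normoxia correlated at 0.986 with both of its partners. Members whose call changed when either of these samples was left out are given with and without it. Summed over 8 fibroblast markers, levels were 17000 to 24100 CPM in normoxia, 27000 to 29300 CPM in wild-type hypoxia and 40700 to 42800 CPM in ΔN-VEGF hypoxia. Vim and Fn1 had the highest levels of the 8 in every group, and single markers moved both ways. With hypoxia 2 rose and 2 fell in wild-type cells, where 18% of all genes rose and 18.1% fell. In ΔN-VEGF cells 4 rose and 2 fell, where 26.8% of all genes rose and 26.3% fell. Over 12 immune, endothelial and epithelial markers the sums were 7.82 to 11.5 CPM in normoxia and 20.8 to 23.9 CPM in wild-type hypoxia. In ΔN-VEGF hypoxia they were 27.5 to 33.7 CPM, where Cdh5 alone was at 19.4 to 24.4 CPM. Of the 12 markers, 7 had no more than 3 counts in every sample. Both sums were thus highest in ΔN-VEGF hypoxia, the group in which Il33, Il6st and Socs3 were highest, and their part in the results was not tested. All 9 genes of a list of textbook hypoxia targets rose in each line. Vegfa stood at 39.4 to 86.2 CPM in wild-type and 34.2 to 37.3 CPM in ΔN-VEGF normoxia and at 272 to 291 and 419 to 437 CPM in hypoxia, but its gene count covers sequence outside the deletion and so does not check it.

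The sequences before the starts of 4 of the genes are shown because their messengers differed several-fold between groups (Il33, Il1rap) or as examples of a searched motif before the start in genes that passed in a comparison (Il1rap, Lif, Socs3). The windows of Il6, Il11 and Il1r1 also hold a motif and are not shown. They are read 5′ to 3′ from RefSeq on GRCm38.p6. Il33 lies on the plus strand of chromosome 19 and has 2 RefSeq starts, an upstream one preceded by chr19:29924863-29925112 and one inside the first intron of the longest transcript, preceded by chr19:29945540-29945789. Il1rap is shown at chr16:26581455-26581703 and Lif at chr11:4257318-4257556, both on the plus strand, and Socs3 at chr11:117969452-117969616 on the minus strand. Each stretch holds no annotated exon base of its gene. That of Socs3 precedes its RefSeq start but lies in the intron of another annotated Socs3 transcript, which begins upstream at 117970047. Capitals mark the motif matches, and the 2 stretches of Il33 have none.
Il33 distal start: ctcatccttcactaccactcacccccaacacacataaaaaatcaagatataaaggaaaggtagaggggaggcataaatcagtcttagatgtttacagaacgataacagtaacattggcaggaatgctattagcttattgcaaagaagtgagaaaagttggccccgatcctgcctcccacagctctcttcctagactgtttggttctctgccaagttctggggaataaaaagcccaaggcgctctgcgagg
Il33 internal start: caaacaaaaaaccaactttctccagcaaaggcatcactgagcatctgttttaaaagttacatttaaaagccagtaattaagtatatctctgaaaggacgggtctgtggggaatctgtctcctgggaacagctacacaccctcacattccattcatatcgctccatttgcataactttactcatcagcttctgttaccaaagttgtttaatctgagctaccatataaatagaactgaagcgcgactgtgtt
Il1rap: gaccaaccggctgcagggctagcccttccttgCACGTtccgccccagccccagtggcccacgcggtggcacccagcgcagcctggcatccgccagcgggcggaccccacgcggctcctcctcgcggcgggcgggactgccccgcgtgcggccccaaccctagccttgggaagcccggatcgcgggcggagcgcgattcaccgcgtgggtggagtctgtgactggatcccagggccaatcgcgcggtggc
Lif: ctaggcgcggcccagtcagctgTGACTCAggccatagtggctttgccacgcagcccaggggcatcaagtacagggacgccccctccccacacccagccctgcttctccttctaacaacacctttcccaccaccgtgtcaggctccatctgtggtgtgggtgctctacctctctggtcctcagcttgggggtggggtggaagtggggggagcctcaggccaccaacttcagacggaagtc
Socs3: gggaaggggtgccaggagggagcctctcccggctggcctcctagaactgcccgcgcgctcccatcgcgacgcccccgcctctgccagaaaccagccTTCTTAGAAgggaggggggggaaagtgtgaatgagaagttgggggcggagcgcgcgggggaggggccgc

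A set of 3 motifs was searched on both strands in windows of 250 bases before and 50 after each RefSeq start, with 15 windows for the 10 genes. ACGTG, the core that HIF factors recognise, was found in 2 windows, those of Il1rap and of Il1r1, and in 19.6% of 32841 promoter windows of the genome. TTCNNNGAA, the form of sequence that STAT factors bind, was found in 1 window, that of Socs3, as TTCTTAGAA beginning 154 bases before the start, and in 8.3% of all windows. TGANTCA, recognised by AP-1, was found in 3 windows, before the starts of Lif, Il6 and Il11, and in 7.81% of all windows. No motif overlapped another in these windows. These matches describe letters only.

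Il33 itself was the member whose level differed most between groups. In wild-type normoxia it was at 21.7, 2.9 and 22.3 CPM in replicates 1 to 3, and in wild-type hypoxia at 6.02, 4.93 and 5.91 CPM. ΔN-VEGF cells had 22.1, 47.2 and 23.8 CPM in normoxia and 169, 171 and 173 CPM in hypoxia. Hypoxic ΔN-VEGF cells thus lay above every other sample, and hypoxic wild-type cells lay below all normoxic samples but 1, the low replicate 2. In RNA of whole cultures, more cells with a messenger and more of it per cell cannot be told apart. In ΔN-VEGF cells Il33 rose with hypoxia by 2.46 on the log2 scale (SE 0.57, adjusted p = 0.0038), a 5.51-fold difference. In wild-type cells the difference was -1.47 (SE 0.57, adjusted p = 0.065) and did not pass. Without replicate 2 of wild-type normoxia it was -1.95 (SE 0.28, adjusted p = 2e-04). Between the lines, Il33 was 30.4-fold higher in ΔN-VEGF cells in hypoxia (log2 4.92, SE 0.64, adjusted p = 0.00077). In normoxia the lines differed by 0.99 (SE 0.55, adjusted p = 0.37), and by 0.07 (SE 0.07, adjusted p = 0.43) without both samples numbered 2. From low to high the order of the group means was wild-type hypoxia, wild-type normoxia, ΔN-VEGF normoxia and ΔN-VEGF hypoxia, at 5.62 ± 0.6, 15.6 ± 11, 31 ± 14 and 171 ± 1.7 CPM (SD, n = 3). Of neighbours in that order only the last pair differed beyond the spread of the samples in the test.

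The difference between the hypoxia responses of the lines was tested as an interaction. For Il33 it was 3.94 on the log2 scale (SE 0.8, adjusted p = 0.031), which made Il33 the 1 member of 10 to pass, where 3.18% of all genes passed, 2.11% with a higher response in ΔN-VEGF cells. This call rested on few samples. Leaving out either normoxia sample numbered 2 kept it, at 4.41 (adjusted p = 8.7e-06) without the wild-type one and 4.36 (adjusted p = 0.024) without the ΔN-VEGF one. Leaving out any 1 of the other 10 samples gave 3.59 to 3.98 with adjusted p-values of 0.072 to 0.096. It also missed the threshold with the replicate number as a block (3.84, adjusted p = 0.056) and with no filter on low counts (3.85, adjusted p = 0.12). The line difference within hypoxia does not involve the normoxia samples except through the scaling and the shared estimate of spread, and there the groups did not overlap.

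**Figure D1:**
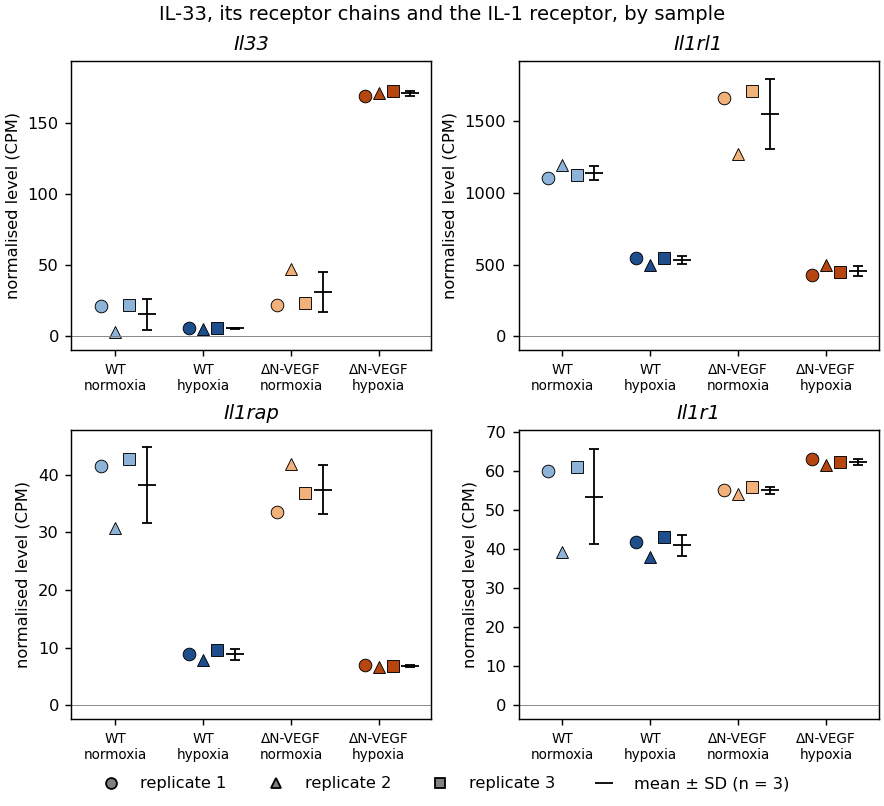
Normalised level (CPM, linear axis) of Il33, Il1rl1, Il1rap and Il1r1 in each of the 12 samples, with the mean and SD of each group of 3 beside the points. Il33 is at 169 to 173 CPM in hypoxic ΔN-VEGF cells and at most 47.2 CPM elsewhere, while Il1rl1 and Il1rap are lower in hypoxia in both lines.

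Both chains of the IL-33 receptor fell with hypoxia in both lines. Il1rl1, the ST2 chain, was at 1100, 1190 and 1120 CPM in wild-type normoxia and at 549, 496 and 549 CPM in wild-type hypoxia. Its levels were 1660, 1270 and 1710 CPM in ΔN-VEGF normoxia and 429, 497 and 448 CPM in ΔN-VEGF hypoxia. Every hypoxic sample lay below every normoxic sample. In wild-type cells the fall was 1.1 on the log2 scale, or 2.14-fold (SE 0.12, adjusted p = 3.9e-05), and 1.76, or 3.38-fold, in ΔN-VEGF cells (SE 0.12, adjusted p = 6.8e-07). In normoxia all ΔN-VEGF samples were above all wild-type samples, by 0.44 (SE 0.12, adjusted p = 0.059), which passed without replicate 2 of wild-type normoxia (0.49, adjusted p = 0.003) or of ΔN-VEGF normoxia (0.57, adjusted p = 0.0088). In hypoxia the lines overlapped (-0.21, SE 0.12, adjusted p = 0.23). The responses of the lines differed by -0.66 (SE 0.17, adjusted p = 0.057), and by -0.71 (adjusted p = 0.002) or -0.79 (adjusted p = 0.011) without the one or the other of these samples. The gene count sums transcripts of different lengths: on chromosome 1 the annotated transcripts end between 40441407 and 40448148 or near 40465415, so the short and long messengers of ST2 were not measured apart.

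Il1rap, the accessory chain, showed the larger fall. In normoxia it was at 41.5, 30.7 and 42.7 CPM in wild-type cells and 33.6, 41.9 and 36.8 CPM in ΔN-VEGF cells. In hypoxia it was at 8.93, 7.84 and 9.66 CPM in wild-type cells and 6.95, 6.69 and 6.78 CPM in ΔN-VEGF cells. The lowest normoxic sample, at 30.7 CPM, was well above the highest hypoxic one, at 9.66 CPM. The log2 change was -2.12 in wild-type cells (SE 0.15, adjusted p = 1.5e-06), a 4.34-fold fall, and -2.46 in ΔN-VEGF cells (SE 0.15, adjusted p = 3e-07), a 5.5-fold fall. The lines differed by -0.03 in normoxia (adjusted p = 0.92) and by -0.37 in hypoxia (SE 0.15, adjusted p = 0.096), and their responses by -0.34 (SE 0.2, adjusted p = 0.37). The antisense gene Gm20319 shares 552 exon bases with Il1rap, 4.86% of its exon length, and the library kit does not mark strand, so reads there cannot be assigned to either gene.

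Il1r1, the signalling chain of the IL-1 receptor, moved little. Its levels were 60.1, 39.4 and 61.1 CPM in wild-type normoxia, 41.9, 37.9 and 43.2 in wild-type hypoxia, 55.1, 54.1 and 56.1 in ΔN-VEGF normoxia, and 63.1, 61.5 and 62.4 in ΔN-VEGF hypoxia. In hypoxia it was 1.52-fold higher in the deletion line than in its parent (log2 0.6, SE 0.14, adjusted p = 0.015), with no overlap. That call was lost without wild-type hypoxia replicate 2 (0.55, adjusted p = 0.057) and without ΔN-VEGF hypoxia replicate 1 (0.59, adjusted p = 0.052). The hypoxia difference was -0.38 in wild-type cells (adjusted p = 0.059), which became -0.56 (adjusted p = 2.2e-05) without the low replicate 2 of normoxia, and 0.18 in ΔN-VEGF cells (adjusted p = 0.32). In normoxia the lines differed by 0.04 (SE 0.14, adjusted p = 0.9). Their responses differed by 0.56 (SE 0.2, adjusted p = 0.15), which became 0.73 (adjusted p = 6.4e-05) without the same sample.

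Among the ligands of the IL-6 family, Lif rose with hypoxia in wild-type cells. It was at 9.11, 11.1 and 8.69 CPM in wild-type normoxia and at 23.7, 25.7 and 23.5 CPM in wild-type hypoxia. The ΔN-VEGF samples were at 12.4, 6.85 and 12.9 CPM in normoxia and 13.7, 12.4 and 14.4 CPM in hypoxia. The wild-type groups were well apart, while the ΔN-VEGF groups overlapped. The rise was 1.34 on the log2 scale, or 2.52-fold, in the parent line (SE 0.21, adjusted p = 0.00052) and the difference in ΔN-VEGF cells was 0.33 (SE 0.21, adjusted p = 0.2). The normoxic lines differed by 0.16 (SE 0.21, adjusted p = 0.73). Hypoxic ΔN-VEGF cells had 1.8-fold less Lif than hypoxic wild-type cells (log2 -0.85, SE 0.21, adjusted p = 0.016). Without wild-type hypoxia replicate 2, ΔN-VEGF hypoxia replicate 1 or ΔN-VEGF hypoxia replicate 2 that difference was -0.81, -0.86 and -0.8 with adjusted p-values of 0.052, 0.057 and 0.067. The responses of the lines differed by -1.01 (SE 0.29, adjusted p = 0.086), which passed without replicate 2 of wild-type normoxia (-1.13, adjusted p = 0.0046) or of ΔN-VEGF normoxia (-1.25, adjusted p = 0.006).

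Il6 was near the limit of detection. It had 11, 4 and 20 counts in wild-type normoxia, 0, 3 and 3 in wild-type hypoxia, 24, 8 and 17 in ΔN-VEGF normoxia and 1 in each sample of ΔN-VEGF hypoxia. Hypoxic samples therefore held no more than 3 counts each, and every ΔN-VEGF normoxia sample held more. Summed over the 3 samples and scaled for depth, Il6 was 12.1-fold higher in normoxia than in hypoxia in ΔN-VEGF cells, with a 95% interval of 3.89 to 60.5 from counting error only, and it passed the test (adjusted p = 0.0051). In wild-type cells the ratio was 4.5, with an interval of 1.87 to 13.1 (adjusted p = 0.055), and it passed without replicate 2 of wild-type normoxia (adjusted p = 0.0076). It did not pass between the lines in normoxia (adjusted p = 0.61) or hypoxia (adjusted p = 0.68), nor in the difference of responses (adjusted p = 0.57).

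Il11, a ligand made by stimulated fibroblasts, stayed between 4.01 and 6.13 CPM in all 12 samples. Its differences with hypoxia were -0.29 in wild-type cells (SE 0.16, adjusted p = 0.18) and -0.21 in ΔN-VEGF cells (SE 0.16, adjusted p = 0.29), and it passed in no comparison. Without replicate 2 of wild-type normoxia the wild-type difference was -0.44 (adjusted p = 0.0082). The lines differed in Il11 by 0.15 in normoxia and 0.23 in hypoxia (SE 0.16 for both, adjusted p = 0.67 and 0.37), and in its response by 0.08 (SE 0.23, adjusted p = 0.87). Its specific receptor chain, Il11ra1, was at 34.2, 12.1 and 31.3 CPM in wild-type normoxia, 28.3, 25.9 and 26.1 in wild-type hypoxia, 33.4, 26 and 32.7 in ΔN-VEGF normoxia and 42, 43.5 and 37.4 in ΔN-VEGF hypoxia. It passed in no comparison either. Its wild-type difference of 0.05 became -0.28 (adjusted p = 0.044) without the low normoxia sample, and its ΔN-VEGF difference was 0.42 (SE 0.29, adjusted p = 0.25). Between the lines it differed by 0.25 in normoxia and 0.61 in hypoxia (SE 0.29 for both, adjusted p = 0.7 and 0.17). The difference of its responses was 0.37 (SE 0.41, adjusted p = 0.65), and 0.69 (adjusted p = 0.0021) without the low sample. Il11ra2, a near-identical copy, had 0 counts in all samples, and how reads that fit both copies were counted makes the level of Il11ra1 uncertain.

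Il6st, the shared gp130 chain, was higher in hypoxic ΔN-VEGF cells than in any other group. Wild-type cells had 459, 184 and 454 CPM in normoxia and 356, 330 and 356 CPM in hypoxia. ΔN-VEGF cells had 378, 294 and 385 CPM in normoxia and 903, 869 and 932 CPM in hypoxia. The rise in ΔN-VEGF cells was 2.56-fold (log2 1.36, SE 0.27, adjusted p = 0.0017), and the lines differed in hypoxia by 2.6-fold (log2 1.38, SE 0.27, adjusted p = 0.0063). In wild-type cells the hypoxia difference was -0.07 (SE 0.27, adjusted p = 0.85). With the low normoxia sample left out it was -0.39 (SE 0.1, adjusted p = 0.0045). The interaction was 1.43 (SE 0.38, adjusted p = 0.07), and 1.74 (adjusted p = 6.4e-07) without that sample. The line difference in normoxia was -0.05 (SE 0.27, adjusted p = 0.94), and -0.36 (adjusted p = 0.0084) without it.

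Socs3, the feedback inhibitor of gp130, was at 128, 58.5 and 116 CPM in wild-type normoxia and 147, 168 and 151 CPM in wild-type hypoxia. The ΔN-VEGF samples were at 95, 57.9 and 85 CPM in normoxia and 246, 237 and 230 CPM in hypoxia. In each line all hypoxic samples were above all normoxic ones. In ΔN-VEGF cells Socs3 rose 3-fold (log2 1.59, SE 0.26, adjusted p = 0.00044). In wild-type cells the difference was 0.62 (SE 0.26, adjusted p = 0.08), and 0.35 (adjusted p = 0.073) without the low normoxia sample. It passed without replicate 1 of wild-type normoxia (0.83, adjusted p = 0.038), with the replicate block (0.68, adjusted p = 0.046) and without both normoxia samples numbered 2 (0.35, adjusted p = 0.00015). The lines differed in hypoxia by 0.62 (SE 0.26, adjusted p = 0.12), again with no overlap, and in normoxia by -0.35 (SE 0.25, adjusted p = 0.51). Their responses differed by 0.97 (SE 0.36, adjusted p = 0.16). Without the low sample the last 2 values were -0.61 (adjusted p = 0.0054) and 1.23 (adjusted p = 0.00043).

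**Figure D2:**
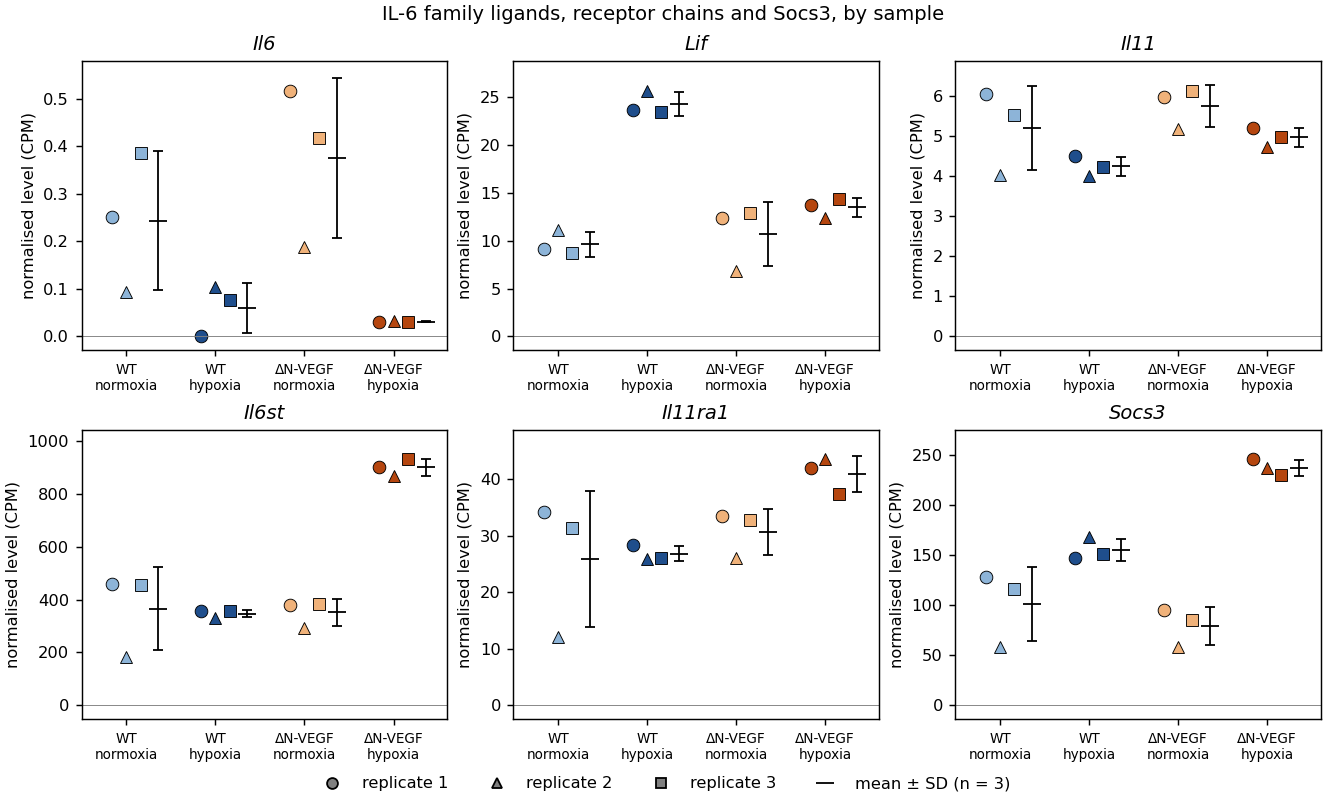
Normalised level (CPM, linear axis) of the IL-6 family ligands Il6, Lif and Il11, the receptor chains Il6st and Il11ra1, and Socs3 in each of the 12 samples, with the mean and SD of each group of 3. Il6st at 869 to 932 CPM and Socs3 at 230 to 246 CPM are highest in hypoxic ΔN-VEGF cells, and Lif at 23.5 to 25.7 CPM in hypoxic wild-type cells.

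Set side by side, 3 of the 10 genes passed with hypoxia in wild-type cells, 1 higher and 2 lower, where 36.1% of all tested genes passed, 18% higher and 18.1% lower. In ΔN-VEGF cells 6 passed, 3 in each direction, where 53.1% of all genes passed, 26.8% higher and 26.3% lower. The share of members was near that of all genes in both lines. The median difference of the 10 genes was -0.34 in wild-type cells and 0.25 in the deletion line, against -0.07 and -0.01 over all genes. Hypoxic and normoxic samples did not overlap for 4 members in wild-type cells, where 45% of all genes did not overlap, and for 8 in ΔN-VEGF cells, where 70.5% did not. Between the lines, 0 of 10 passed in normoxia at a background of 4.21%, and by DESeq2's Wald test 1 did, where 9.9% of all genes passed. At an unadjusted p under 0.05 it was 1, Il1rl1, against 18.8% of all genes. In hypoxia 4 of 10 passed, with Il33, Il6st and Il1r1 higher and Lif lower in ΔN-VEGF cells, where 19.7% of all genes passed, 10.5% higher and 9.14% lower. The groups did not overlap for 8 members there, against 59.8% of all genes. With a fold change of at least 2 asked for as well, 3 members passed with hypoxia in wild-type cells (15.6% of all genes) and 6 in the deletion line (27.2%), 0 between the lines in normoxia (2.11%) and 2 in hypoxia (6.6%), and 1 in the difference of responses (1.51%). Without both normoxia samples numbered 2, the members that passed were 10, 9, 5 and 8 in these 4 comparisons, where 65.3%, 71.4%, 53.6% and 55.8% of all genes passed.

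**Figure D3:**
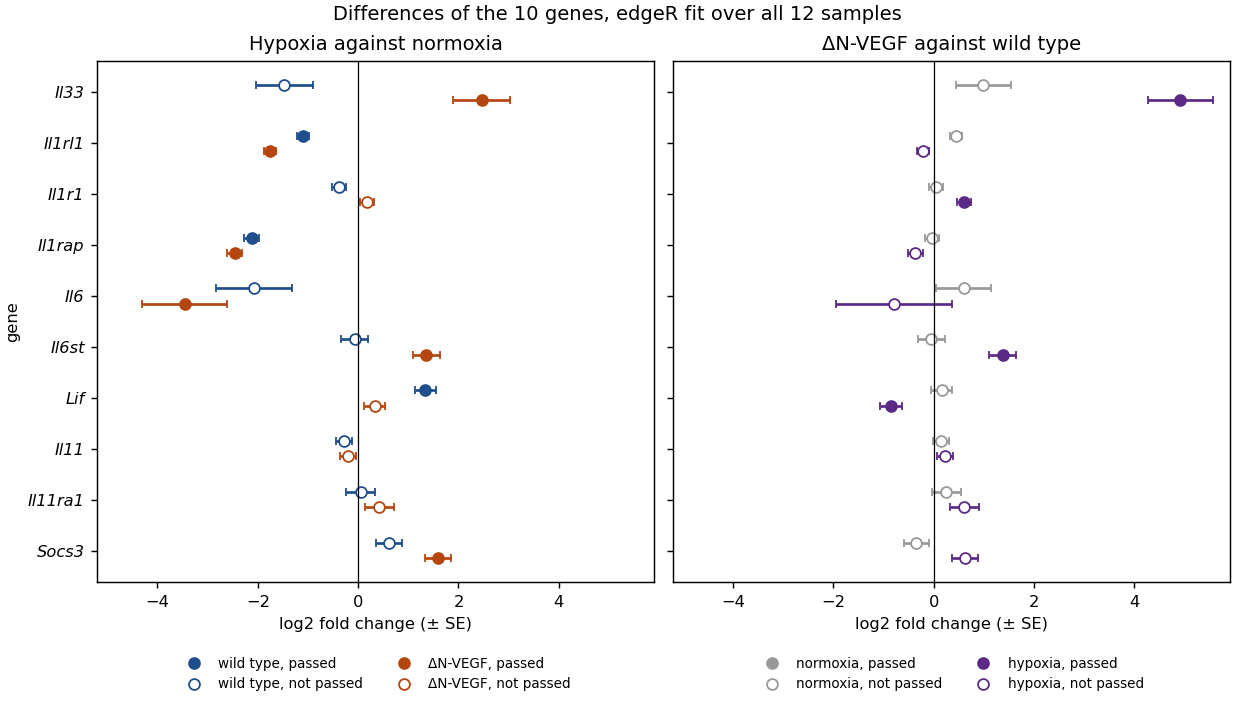
Log2 fold change with its SE for each gene, hypoxia against normoxia in each line (left) and ΔN-VEGF against wild type in each condition (right), from the edgeR fit over 12 samples. Filled points passed at an adjusted p below 0.05. Il1rl1 and Il1rap are below 0 in both lines, whereas Il33 is at -1.47 in wild-type and 2.46 in the deletion line.

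Levels of different genes were compared per kilobase of annotated exon, which treats all exons as used. On that scale Il1rl1 was the most abundant of the 10 in 3 groups, at 165 CPM per kb in wild-type normoxia, 77.1 in wild-type hypoxia and 224 in ΔN-VEGF normoxia. In ΔN-VEGF hypoxia Socs3 and Il6st led with 82.4 and 81.2 CPM per kb and overlapping ranges, followed by Il1rl1 at 66.4 and Il33 at 59.3. Il33 ranged from 1.95 CPM per kb in hypoxic wild-type cells to that value. Il6 was the least abundant in every group, at no more than 0.213 CPM per kb in any sample.

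**Figure D4:**
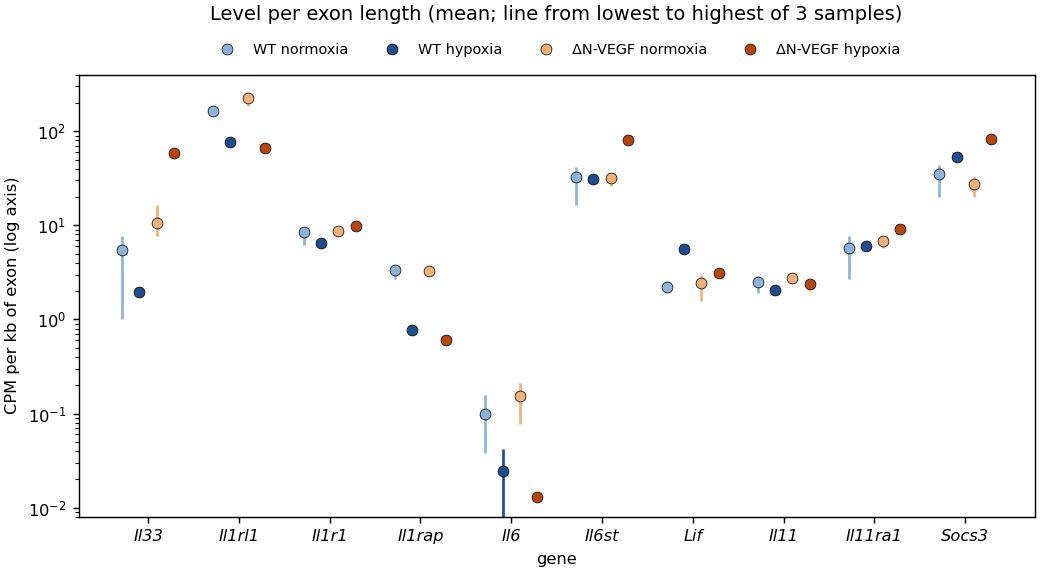
Level per kilobase of exon (CPM per kb, log axis) of the 10 genes in the 4 groups. Points are means and lines run from the lowest to the highest of 3 samples, cut at the axis for Il6 in wild-type hypoxia, where 1 sample is at 0. Il1rl1 leads in all groups but ΔN-VEGF hypoxia, where Socs3, Il6st, Il1rl1 and Il33 lie between 59.3 and 82.4 CPM per kb.

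Over the 12 samples, the genes whose centred log2 CPM followed that of Il33 most closely, of 11548 compared, were Chil1, Ccr7 and Saa3. Their root mean square differences from Il33 were 0.47, 0.58 and 0.59 on the log2 scale, where the spread of Il33 itself was 1.99. Chil1, a chitinase-like secreted protein, was at 0.123 CPM on average in wild-type hypoxia and 7.81 CPM in ΔN-VEGF hypoxia. Ccr7, a chemokine receptor, was at 0.854 and 48.1 CPM, and Saa3, an acute-phase protein, at 0.314 and 6.03 CPM. The samples share 2 lines and 2 conditions, so this likeness is a description.

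Other ligands and antagonists of the IL-1 family were scarce. Of 8 such genes in the file 2 passed the filter on low counts, and Il1b and Il1rn had 0 counts in every sample. Il18, a related alarm cytokine, fell with hypoxia in wild-type cells (log2 -1.4, SE 0.47, adjusted p = 0.036). It was the 1 of 2 tested that passed, where 36.1% of all genes passed and 18.1% fell. Its wild-type groups overlapped, at 2.02 to 9.63 CPM in normoxia and 2.22 to 3.17 CPM in hypoxia. In ΔN-VEGF cells Il18 differed by -0.84 (SE 0.47, adjusted p = 0.15), and 0 of the 2 passed, against 53.1% of all genes. In the IL-1 receptor family, 2 of 4 tested genes fell in wild-type cells and 3 of 4 in ΔN-VEGF cells, and 0 rose, where 18.1% and 26.3% of all genes fell. Il18rap, the accessory chain of the IL-18 receptor, fell by 1.34 in wild-type (SE 0.19, adjusted p = 3e-04) and by 2.4 in the deletion line (SE 0.2, adjusted p = 3.4e-06). The others that fell were Il1rl2 in both lines and Il18r1 in ΔN-VEGF cells, both at no more than 1.62 CPM in any sample and named after their values were seen. The difference between the responses passed for Il18r1, the ligand-binding chain of the IL-18 receptor, at -3.32 (SE 0.58, adjusted p = 0.017). Without both normoxia samples numbered 2 the receptor list had 1 higher and 2 lower in wild-type and 3 lower in ΔN-VEGF cells, where 32.5% and 35.9% of all genes fell.

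Of 15 tested genes that carry the signal from the IL-1 and IL-33 receptors, 4 passed in wild-type cells (2 higher, 2 lower) and 7 in the deletion line (4 higher, 3 lower), where 36.1% and 53.1% of all genes passed, with medians of -0.03 and 0.12. Traf6, the ubiquitin ligase downstream of MYD88, was raised by 1.7 in wild-type (SE 0.08, adjusted p = 7.4e-08) and 1.88 in the deletion line (SE 0.08, adjusted p = 1.9e-08). Nfkb1 fell by 0.62 and Rela rose by 0.38 in wild-type cells (adjusted p = 0.00022 and 0.0083), and these 2 genes encode subunits of NF-κB. In ΔN-VEGF cells Rela rose by 0.75 (adjusted p = 6.5e-05) and Tab2, an adaptor for the kinase TAK1, by 0.78 (adjusted p = 0.00014). Among 17 tested feedback and target genes of NF-κB, 4 rose and 4 fell in the parent and 6 rose and 4 fell in the deletion line, near the shares of all genes (18% and 18.1%, then 26.8% and 26.3%). Tnfaip3, which encodes the feedback inhibitor A20, rose by 3.44 and 3.8 (adjusted p = 2.6e-07 and 6.2e-08). The chemokines Ccl2 and Ccl7 fell, with differences of -3.42 and -4.28 for Ccl2 (adjusted p = 8.6e-05 and 1.2e-05) and of -3.59 and -2.87 for Ccl7 (adjusted p = 0.00025 and 0.00048). Saa3 was higher in the deletion line than in its parent in hypoxia by 4.24 (SE 0.84, adjusted p = 0.0062). In normoxia Cxcl5 and Cxcl1 were higher there by 1.04 and 0.96 (adjusted p = 0.033 and 0.016). Between the lines, 2 of the 17 were higher and 1 lower in normoxia, where 1.32% of all genes were higher and 2.89% lower. In hypoxia 3 of the 17 were higher and 1 lower, where 10.5% of all genes were higher and 9.14% lower. These genes moved in both directions, and the list medians were 0.03 and 0.37 with hypoxia in the 2 lines. Without both normoxia samples numbered 2, the signalling genes were 3 higher and 5 lower with hypoxia in wild-type cells and 7 higher and 6 lower in the other line, and the NF-κB genes 7 higher and 8 lower, and 9 higher and 5 lower. Of all genes 65.3% and 71.4% passed there.

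On the IL-6 side, receptor chains rose in ΔN-VEGF hypoxia beside Il6st. Of 4 tested genes of the list 1 passed in wild-type and 3 in the deletion line, all higher, where 18% and 26.8% of all genes rose, with medians of 0.44 and 1.57. Osmr, the oncostatin M receptor, went from 60.4 to 106 CPM in ΔN-VEGF normoxia to 363 to 388 CPM in hypoxia (log2 2.06, SE 0.47, adjusted p = 0.0035). Il6ra, the ligand-binding chain for IL-6, rose from 15.2 to 18 CPM to 35.2 to 37 CPM (log2 1.09, SE 0.11, adjusted p = 1.5e-05), and its response differed between the lines by 0.8 (SE 0.16, adjusted p = 0.026). In hypoxia Osmr and Il6ra were higher in the deletion line than in its parent by 1.62 and 0.79 (adjusted p = 0.031 and 0.0011). The third gene, also the one that passed in wild-type cells, was Cntfr, below 1 CPM in every sample and named after its values were seen. Among 4 tested further ligands, for which only falls are reported here, 2 fell in each line, where 18.1% and 26.3% of all genes fell. In ΔN-VEGF cells Clcf1, a cardiotrophin-like cytokine, fell by 1.03 (adjusted p = 0.046) and Ctf1, cardiotrophin 1, fell by 1.1 (adjusted p = 0.00019). Ctf1 also fell in wild-type cells, by 0.45 (adjusted p = 0.046), and the other ligand that fell there was Cntf, below 1 CPM and named after its values were seen. Without both normoxia samples numbered 2, 4 of the 4 receptor genes rose in each line, where 32.8% and 35.4% of all genes rose.

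Jak1, the main kinase bound to gp130, rose in both lines. Its levels were 295 to 313 CPM in wild-type normoxia, 741 to 782 in wild-type hypoxia, 290 to 330 in ΔN-VEGF normoxia and 1160 to 1210 in ΔN-VEGF hypoxia. The log2 rises were 1.32 (SE 0.08, adjusted p = 5.3e-07) and 1.92 (SE 0.08, adjusted p = 2.4e-08), and they differed by 0.6 (SE 0.11, adjusted p = 0.02). Stat3 rose in ΔN-VEGF cells by 1.44 (SE 0.39, adjusted p = 0.009). In all, 3 of 11 tested JAK, STAT and phosphatase genes passed in wild-type cells, 1 higher and 2 lower, and 6 in ΔN-VEGF cells, 4 higher and 2 lower, where 36.1% and 53.1% of all genes passed. Without both normoxia samples numbered 2 these were 4 and 4 in the former and 6 and 3 in the latter, where 65.3% and 71.4% of all genes passed. Among 15 tested feedback and target genes of STAT3, 3 rose and 0 fell in the parent, where 18% of all genes rose and 18.1% fell. In the deletion line 8 rose and 1 fell, where 26.8% of all genes rose and 26.3% fell. The medians of the 15 genes were -0.03 and 0.67. Serpina3n, a secreted protease inhibitor, rose by 3.4 in ΔN-VEGF cells (SE 0.49, adjusted p = 0.00018). Fosl2, an AP-1 subunit, rose by 1.03 in wild-type and 1.84 in the deletion line (adjusted p = 0.022 and 0.00055), and Il4ra, the IL-4 receptor chain, by 0.95 and 1.52 (adjusted p = 2.7e-05 and 4.7e-07). Between the lines in hypoxia 5 of the 15 were higher in ΔN-VEGF cells and 0 lower, against 10.5% and 9.14% of all genes. Without both normoxia samples numbered 2, 7 rose and 7 fell in wild-type cells, where 32.8% of all genes rose and 32.5% fell. In that fit 11 rose and 4 fell in ΔN-VEGF cells, against 35.4% and 35.9% of all genes. There 12 were higher and 2 lower in ΔN-VEGF than in wild-type hypoxia, against 27.5% and 28.3% of all genes.

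**Figure D5:**
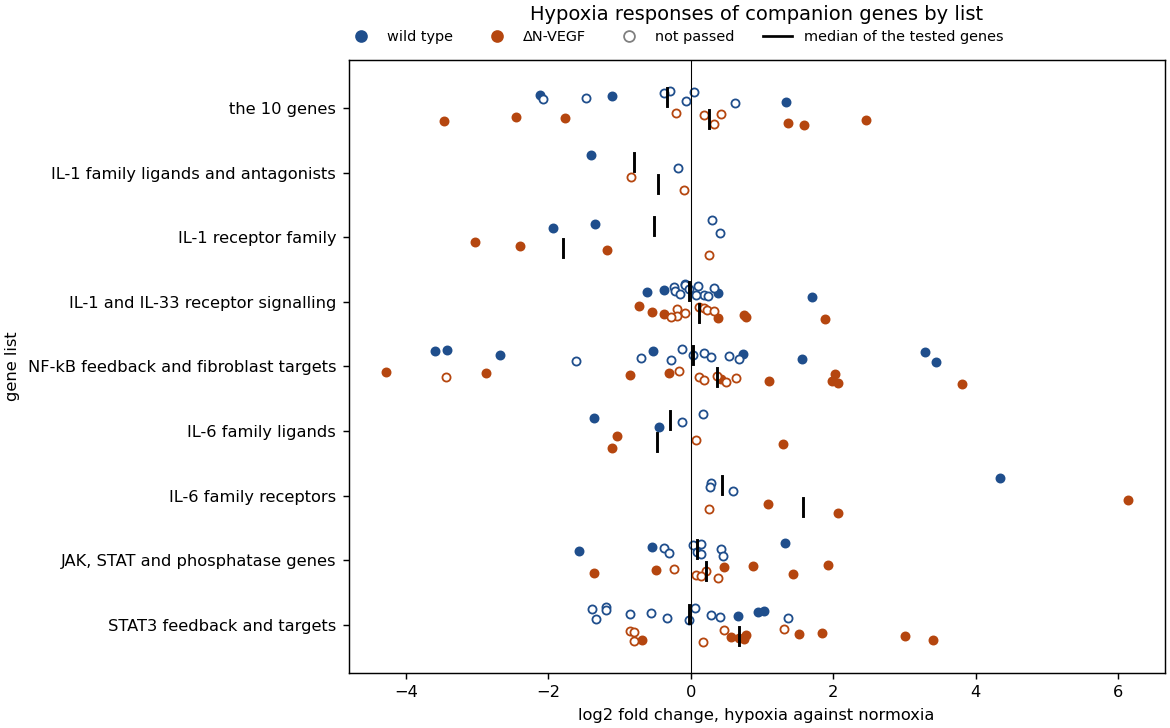
Log2 fold change with hypoxia of the 10 genes and of the genes of 8 companion lists, in wild-type (blue) and ΔN-VEGF cells (orange). Filled points passed at an adjusted p below 0.05 and black bars are medians of the tested genes. The median of the IL-6 family receptors is 0.44 and 1.57, and that of the STAT3 feedback and targets -0.03 and 0.67, in the 2 lines.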

How the data were processed

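RNA of 12 samples (4 groups of 3) was sequenced by the authors as 80-bp single reads from TruSeq v2 libraries, a kit that does not mark strand. Per the labels and the study's methods, reads were trimmed, aligned with TopHat2 2.1.0 and counted per gene with HTSeq 0.6.1 (annotation release 94, GRCm38.p6). The deposited values are raw counts, which were used as they are.

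Counts were tested in R 4.3.3 with edgeR 4.0.16: filterByExpr (minimum count 10), TMM scaling, a robust quasi-likelihood fit of 4 group means and 5 contrasts, with Benjamini-Hochberg adjustment over 14724 genes. SE is the log2 fold change divided by the root of F. Log2 CPM used a prior count of 2. The code was tested on simulated data. Alternatives were DESeq2 1.42.0, other scalings, filters, samples in the fit and a replicate block. Exons came from GENCODE M21 and promoter windows from RefSeq. All 10 genes matched a promoter window.

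All 10 members were named in every comparison, and from each companion list at most 3 passing genes of at least 1 CPM with the largest change per comparison. The members and lists were chosen with earlier results of these data known. Same-numbered samples deviated together in normoxia (correlations 0.36 to 0.5 in the 3 pairs), but samples 1 and 3 also correlated across numbers (0.35 and 0.36), so only number 2 stood apart, and same-numbered samples did not deviate together in the other comparisons (-0.02 to 0.11). The labels do not say what a number stands for. One listed ligand was not matched by name. Results of 2 companion genes are not reported here. Samples of the study's other experiments were not analysed here.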

Additional observations from a re-analysis of the deposited data

Results flagged for a closer look

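One result was singled out because the difference between 2 cell lines under the same treatment passed its own test. The hypoxia response of Il33 was 3.94 higher on the log2 scale in ΔN-VEGF cells than in the parent line (SE 0.8, edgeR adjusted p = 0.031), at 2.46 against -1.47. A pair of normoxia samples moved with it: replicate 2 of wild-type normoxia, at 2.9 CPM, and replicate 2 of ΔN-VEGF normoxia, at 47.2 CPM, lay apart from their partners at 21.7 to 23.8 CPM. With the replicate block the difference was 3.84 (adjusted p = 0.056) and with no filter 3.85 (adjusted p = 0.12). The call was also lost when any other single sample was left out, with edgeR adjusted p-values of 0.072 to 0.096. Without both normoxia samples numbered 2, the value was 4.84 (SE 0.1, edgeR adjusted p = 9.7e-18), where 52.7% of all genes passed.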

How the results depend on the processing

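The numbers of the 10 genes that passed, in the order of wild-type hypoxia, ΔN-VEGF hypoxia, lines in normoxia, lines in hypoxia and difference of responses, were 3, 6, 0, 4 and 1. A fold change of at least 2 gave 2 for the lines in hypoxia. Total counts in place of TMM gave 6 for wild-type hypoxia and 3 for the difference of responses, where 45.2% and 5.93% of all genes passed. They gave 5 (2 higher, 3 lower) for the lines in hypoxia, where 26.5% of all genes passed. Il1r1 no longer passed there (0.38, edgeR adjusted p = 0.15). They also moved the median of all genes to -0.3, -0.41, -0.07, -0.23 and -0.15 in the same order. The 6658 and 8770 genes that passed with hypoxia were thus 1878 higher and 4780 lower in wild-type and 2236 higher and 6534 lower in ΔN-VEGF cells. Between the lines in hypoxia 663 were higher and 3233 lower, against 1552 and 1346 with TMM. No filter gave 1 for the lines in normoxia and 0 for the difference, where 1.5% and 0.857% of all genes passed. DESeq2 gave 6, 1 and 4 for wild-type hypoxia, normoxia and difference, where 40.4%, 9.9% and 10.7% of all genes passed. With the replicate block these were 5, 0 and 0, where 38.4%, 4.13% and 3.05% of all genes passed. In normoxia, where every same-numbered pair correlated over 0.1, the block left 0 members also with only the 6 normoxia samples. That alternative was chosen after seeing the data. The 6 samples of the comparison alone gave 8 for the lines in hypoxia, of 9 members tested there, where 56.9% of all genes passed. Leaving out both normoxia samples numbered 2 gave 10, 5, 8 and 7 for wild-type hypoxia, normoxia, lines in hypoxia and difference. Of all genes 65.3%, 53.6%, 55.8% and 52.7% passed there. Leaving out 1 sample at a time gave 3 to 9, 6 to 6, 0 to 3, 2 to 4 and 0 to 7, with 9, 3 and 7 for wild-type hypoxia, normoxia and difference without wild-type normoxia replicate 2, where 53.9%, 48.8% and 44.4% of all genes passed. The cause was not tested. The wild-type difference of Il11ra1 ranged from -0.28 to 0.3 when 1 sample was left out, reversing to -0.28 without wild-type normoxia replicate 2 and also without both samples numbered 2. Il33's difference of responses was 3.85 (adjusted p = 0.12, edgeR) with no filter and 3.84 (0.056) with the block. Of 752 values of single members under the alternatives, 667 stayed on their side of the threshold, 24 of them with the other sign and no call under either setting, 65 newly passed, 18 no longer passed and 2 reversed. Il6 was limited by depth, with 0 to 24 counts per sample.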
